A study of Mus musculus with 10 samples.

Results

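The genes described here are the 78 mouse genes whose symbols name a numbered protein of the large (Mrpl, 49 genes) or the small (Mrps, 29 genes) subunit of the mitochondrial ribosome, of 55414 genes in the count files, with pseudogenes left out. Their transcripts were measured by RNAseq of poly(A)-selected RNA from interscapular brown adipose tissue (iBAT) of 5 Cre- and 5 Cre+ mice on the C57BL/6J background, killed at 12 to 14 weeks of age on normal chow. All mice carried RetSat flox/flox alleles, and the Cre+ mice also carried Ucp1-Cre, in which the promoter of uncoupling protein 1 drives the recombinase in brown adipocytes, so other cells of the tissue keep RetSat (retinol saturase). The comparison asks whether deletion of RetSat in brown adipocytes changes the level of these transcripts in iBAT.

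The mitochondrial ribosome is made of 2 rRNAs that mitochondrial DNA (mtDNA) encodes and of many proteins that the nucleus encodes. These proteins are made in the cytosol and imported into the mitochondrial matrix. The assembled particle translates the mRNAs of the 13 proteins that mtDNA encodes, which are core subunits of the respiratory complexes and of ATP synthase. Many of its proteins have a bacterial counterpart, while others are found in mitochondria and not in bacterial ribosomes. Brown adipocytes are packed with mitochondria, and their heat production depends on the respiratory chain. Of the 78 genes, 45 were classed as having a bacterial counterpart and 32 as mitochondria-specific. Mrps36 was left unclassed, since its product is also known as a component of the 2-oxoglutarate dehydrogenase complex.

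Values are CPM (counts scaled to the same library size, with library sizes set by the trimmed mean of M-values, TMM). The log2 fold change (log2FC) sets Cre+ against Cre- mice and comes from the quasi-likelihood fit of edgeR, with p-values adjusted by the Benjamini-Hochberg method over 17690 genes that passed a filter on low counts. Levels of different genes are compared only as TPM, in which counts are divided by the length of the gene's annotated exons before scaling. Each Cre- library held 91903095 to 132499312 counts and each Cre+ library 96991071 to 110293494. For RetSat itself (Retsat in the gene table) the Cre- mice had 150.8 to 254.7 CPM and the Cre+ mice 18.01 to 38.98 CPM. Brown adipocyte markers summed to 16144 to 20065 CPM over all libraries. Skeletal muscle markers summed to 560 CPM in Cre- replicate 2, 276 CPM in Cre+ replicate 4 and at most 20.8 CPM in the others, and values without these 2 libraries are given where they moved a named gene or the group by over 1.5 times. The samples are labelled as separate mice.

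In 3 of the 5 Cre+ libraries (replicates 1, 4 and 5), and in 0 Cre- libraries, the identifier in the count file carries an added letter, whose meaning is not given in the sources used here. These 3 libraries also stood apart in base composition. The slope of log2 CPM, taken relative to each gene's mean, over transcript GC content in all genes tested was 0.094 to 0.14 per 10% of GC in them. It was -0.10 and -0.025 in Cre+ replicates 2 and 3 and -0.081 to -0.028 in the Cre- libraries. GC-rich transcripts were thus measured relatively higher in the lettered libraries. Since all of them are Cre+, the letter and the genotype cannot be told apart except through Cre+ replicates 2 and 3. Values without the lettered libraries are given beside most results for lists and named genes.

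The starts of the genes were examined first, since shared promoter letters are a feature that the choice of members did not use. RefSeq promoters (GRCm38.p6, 250 bases before to 50 after each start) were found for 69 of the 78 genes. On both strands they were searched for CGCATGCG (the core of the site of nuclear respiratory factor 1, NRF1), CCGGAAGT (a site of ETS family factors, to which the nuclear respiratory factor GABP belongs) and AAGATGGC (a site of YY1). The NRF1 letters were in promoters of 7 genes (10.1%, against 2.07% of 27025 genes in the table), the ETS letters in 12 (17.4%, against 4.31%) and the YY1 letters in 12 (17.4%, against 3.19%). In all, 29 genes (42.0%) had at least 1 of the 3, against 9.03% of all genes, and no letters of 2 different motifs overlapped in a member's promoter. These are matches of letters and do not show that a factor is bound. The 27025 genes were not matched to the members in expression or promoter GC content. The shares are therefore not shown to be particular to these genes.

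The NRF1 letters had 8 matches, of which 4 lay 60 or fewer bases before the start. These 4 are shown with 10 bases on either side, the motif in capitals, to let the shared letters and the unlike flanks be seen.
Mrpl17 (chr7:105811080-105811107, minus strand): cgagttactgCGCATGCGtcctctgaga
Mrpl22 (chr11:58171622-58171649, plus strand): cctcggactgCGCATGCGtatagtcagc
Mrpl32 (chr13:14613043-14613070, minus strand): gcggacttaaCGCATGCGctcagcccgc
Mrpl9 (chr3:94443299-94443326, plus strand): ggcgcagctgCGCATGCGcggggtcctt
Mrpl32 held a further match 86 bases before its start.

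The ETS letters had 12 matches, 8 of them 60 or fewer bases before the start, as in the genes shown next. Mrps26 and Mrpl43 are among those described below for their values in Cre+ mice, and Mrpl3 had among the lowest spread between mice.
Mrps26 (chr2:130563732-130563759, minus strand): tgcgcccggcCCGGAAGTggccgcggag
Mrpl43 (chr19:45006437-45006464, minus strand): aaccccggaaCCGGAAGTcaccggttag
Mrpl3 (chr9:105053239-105053266, plus strand): gagaaacggaCCGGAAGTggcccggctg
Mrps22 (chr9:98601673-98601700, minus strand): acctctcgagCCGGAAGTtgctctatcg

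The YY1 letters lay elsewhere. Of 12 matches, 8 lay 11 to 36 bases after the start, in the direction of transcription. The letters contain ATG, and in 9 of the 12 matches this ATG was an annotated start codon (GENCODE M21), against 231 of 927 matches (24.9%) in all promoters. In 6 of the 9 it was the start codon of the gene itself. In the other 3 it was that of the gene transcribed the opposite way, namely Sars2 beside Mrps12, Psma2 beside Mrpl32 and Mrpl46 beside Mrps11. The following show 4 of the 6, and Mrpl42, whose ATG is not annotated as a start codon.
Mrpl35 (chr6:71823744-71823771, minus strand): ggcaggctgcAAGATGGCggcttccatc
Mrpl49 (chr19:6057722-6057749, minus strand): ttgaggcgccAAGATGGCagcagcggtg
Mrps18a (chr17:46111005-46111032, plus strand): ggtgcgttccAAGATGGCggccctcagg
Mrps7 (chr11:115604148-115604175, plus strand): gacagcggccAAGATGGCtgcccccgcg
Mrpl42 (chr10:95501905-95501932, minus strand): agattgaagcAAGATGGCgagcgcgcgg

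The genes lie on 17 chromosomes, and 36 of the 78 (46.2%) have a gene on the opposite strand whose start is within 1000 bp of their own, against 3598 of 17628 tested genes (20.4%). Mrpl46 and Mrps11, a large and a small subunit gene, form such a pair with each other. Partners picked here for a mitochondrial product were Sars2, the mitochondrial seryl-tRNA synthetase gene beside Mrps12, and Ndufs6, a complex I subunit gene beside Mrpl36. So were Ndufb5, another complex I subunit gene beside Mrpl47, and Twnk, the mtDNA helicase gene beside Mrpl43. Most of the 36 genes have other partners, such as Lrrc46 beside Mrpl10, Klc4 beside Mrpl2, Tcp1 beside Mrpl18 and Hira beside Mrpl40. Gene models of this kind can overlap. In 17 of the 78 genes more than 10% of exon bases are shared with another gene, and reads were counted without strand, so values of these genes are uncertain. Genes with a motif did not stand apart in level or in log2FC as far as medians show. The median log2FC was 0.013 for the 7 genes with the NRF1 letters and 0.045 for the 62 without. It was 0.045 with and 0.041 without the ETS letters, and 0.039 with and 0.041 without the YY1 letters.

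All 78 genes were expressed in iBAT and passed the filter on low counts. Their median level in Cre- mice was 48.6 TPM, which lay above 90.8% of the genes tested, and 76 of the 78 lay above the median of all genes tested (3.97 TPM). The middle 50% of the members ranged from 21.8 to 87.0 TPM. Large subunit genes had a median of 52.2 TPM and small subunit genes of 34.2 TPM. Here and below this split is by symbol, so Mrps18a, Mrps30 and Mrps36 are counted with the small subunit. The proteins are built into 1 particle, while their transcripts spanned 2.24 to 439 TPM.

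The highest level was that of Mrpl34, which encodes a small basic protein of the large subunit with a bacterial counterpart, with 439 ± 25.7 TPM (SD, n = 5) in Cre- and 533 ± 68.0 TPM (SD, n = 5) in Cre+ mice. Mrpl12, whose product forms the stalk that recruits translation factors, followed with 250 ± 15.4 TPM in Cre- and 300 ± 25.5 TPM in Cre+ mice. Next came Mrps21 (210 ± 7.94 TPM in Cre-) and Mrpl2 (170 ± 8.67 TPM in Cre-), the latter a protein near the peptidyl transferase centre. The ranges of these 4 over Cre- mice did not overlap those of their neighbours in the order. Of 77 pairs of neighbours in the order, 9 had ranges that did not overlap, so most of the order below the top is not resolved by these mice. The annotated exons were 607 bases for Mrpl34, 739 for Mrps21, 1170 for Mrpl2 and 1532 for Mrpl12. The top of the order therefore also rests on annotated length.

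At the low end were Mrpl53 (2.24 ± 0.441 TPM in Cre-), Mrpl23 (3.34 ± 0.124 TPM), Mrps10 (8.93 ± 0.307 TPM) and Mrpl33 (9.91 ± 0.415 TPM). The length that divides these values is the union of all annotated exons, which was 4883 bases for Mrpl23, 8079 for Mrps10 and 7326 for Mrpl33. Any of these exons that iBAT does not use would lower the TPM, and use of exons was not examined. For Mrpl53, 88.0% of exon bases are shared with other genes. The stalk proteins Mrpl10 (122 ± 7.77 TPM in Cre-) and Mrpl11 (31.1 ± 0.559 TPM), which anchor Mrpl12 to the particle, lay well below Mrpl12. Mrpl58, the peptidyl-tRNA hydrolase that is part of the large subunit, had 27.7 ± 2.12 TPM. The 3 genes named for S18, of which Mrps18c was classed as the bacterial counterpart and the other two as mitochondria-specific, had 34.2 ± 1.96 (Mrps18a), 26.5 ± 1.19 (Mrps18b) and 49.995 ± 2.54 TPM (Mrps18c) in Cre- mice, and their promoters held the letters of a different motif each, YY1, NRF1 and ETS in that order. Structures place the product of Mrps18a, despite its name, in the large subunit.

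The order was alike in the genotypes. The 10 highest genes of Cre- mice were also the 10 highest of Cre+ mice, and the 10 lowest were likewise the same. Across the 78 genes log2 TPM of Cre- and Cre+ mice had a Pearson r of 0.996, given as a description since genes are not independent replicates.

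**Figure D1:**
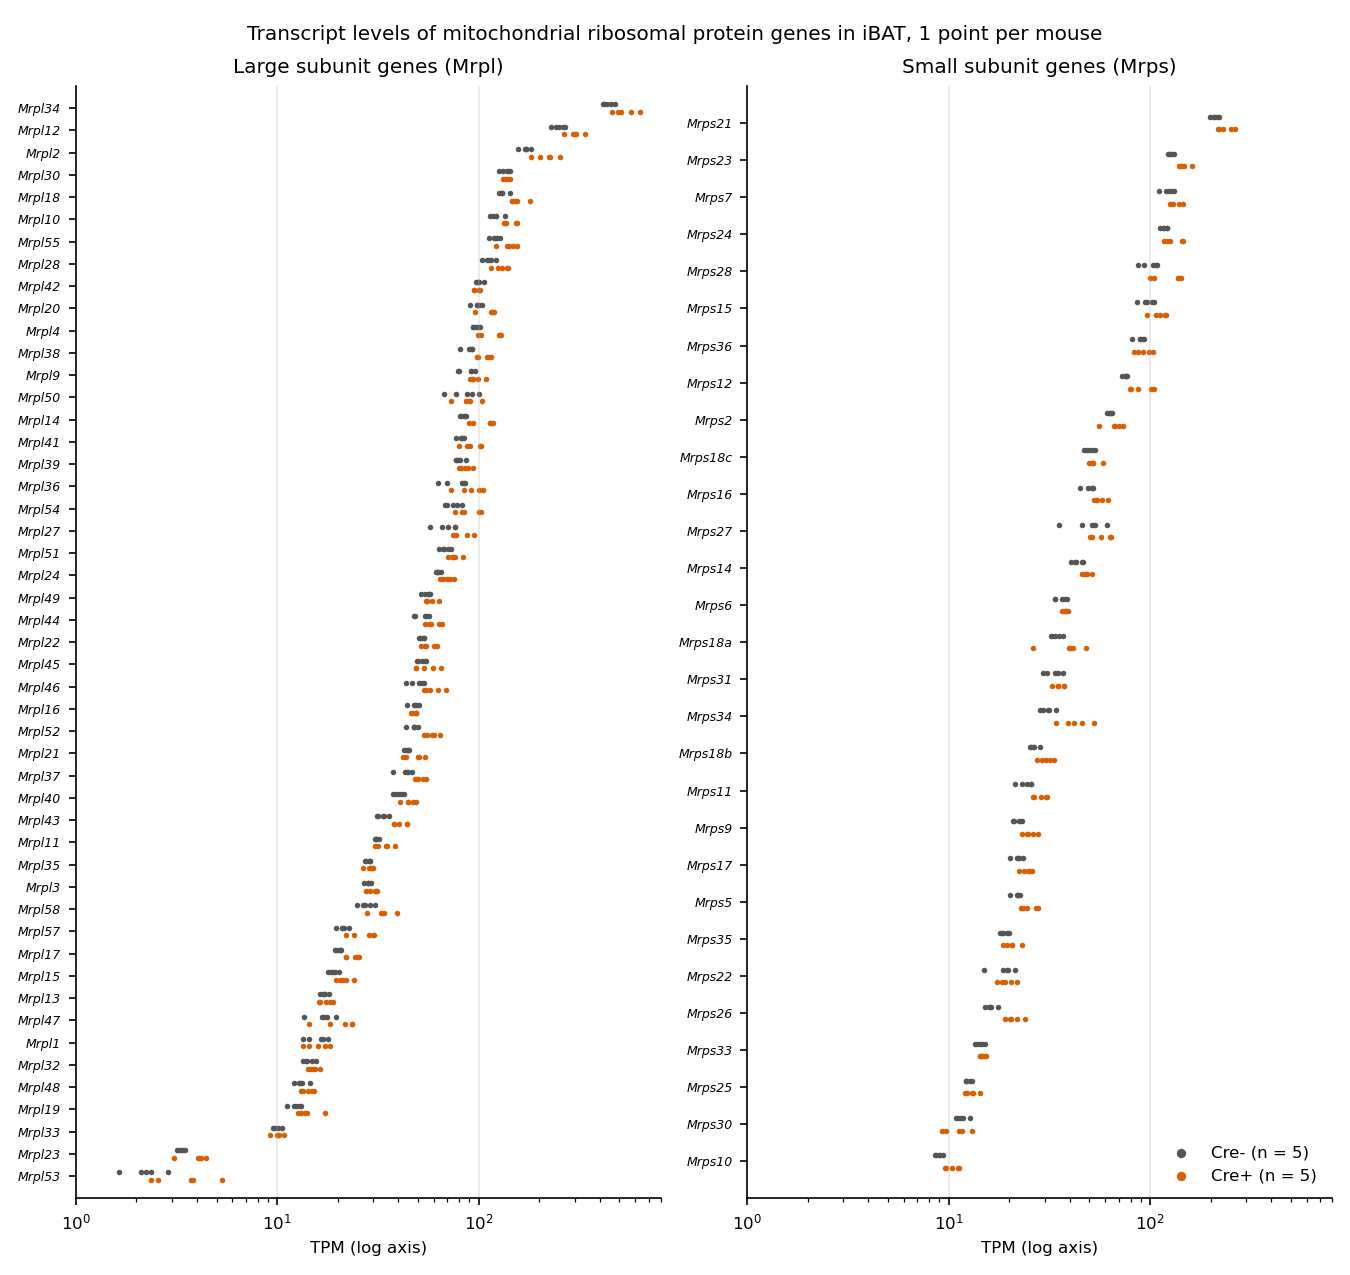
TPM (log axis) of each of the 49 large and 29 small subunit genes, 1 point per mouse, ordered by the Cre- mean. Mrpl34 lies highest near 439 TPM in Cre- mice and Mrpl53 lowest near 2.24 TPM, and the Cre+ points follow the same order.

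As a group the 78 genes took 0.425, 0.445, 0.425, 0.425 and 0.425% of all counts in the 5 Cre- libraries and 0.466, 0.436, 0.453, 0.444 and 0.512% in the 5 Cre+ libraries. Cre+ replicate 5 was the highest, and Cre- replicate 2 lay inside the range of the Cre+ libraries. Part of this share depends on mtDNA-encoded transcripts, which held 19.7 to 24.8% of counts in Cre- libraries against 17.7 to 19.4% in Cre+ libraries. As a percent of the remaining, nuclear counts the 78 genes took 0.529 to 0.572% in Cre- libraries against 0.541 to 0.622% in Cre+ libraries, and these ranges overlapped. In bulk tissue, fewer cells of a type and less RNA per cell cannot be told apart.

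The mean log2 CPM over the 78 genes was 5.51 ± 0.057 (SD, n = 5) in Cre- and 5.55 ± 0.084 (SD, n = 5) in Cre+ mice, a difference smaller than the spread between mice. The Cre- mice ranged from 5.45 to 5.60 and the Cre+ mice from 5.48 to 5.69. Without the lettered libraries the 2 remaining Cre+ mice had 5.49 and 5.54. Summed TPM of the group, 4774 to 5144 in Cre- mice against 5260 to 6329 in Cre+ mice, did not overlap, but TPM divide by a total in which the mtDNA-encoded transcripts weigh heavily. A statement that the group is higher in Cre+ mice therefore depends on the scale.

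**Figure D2:**
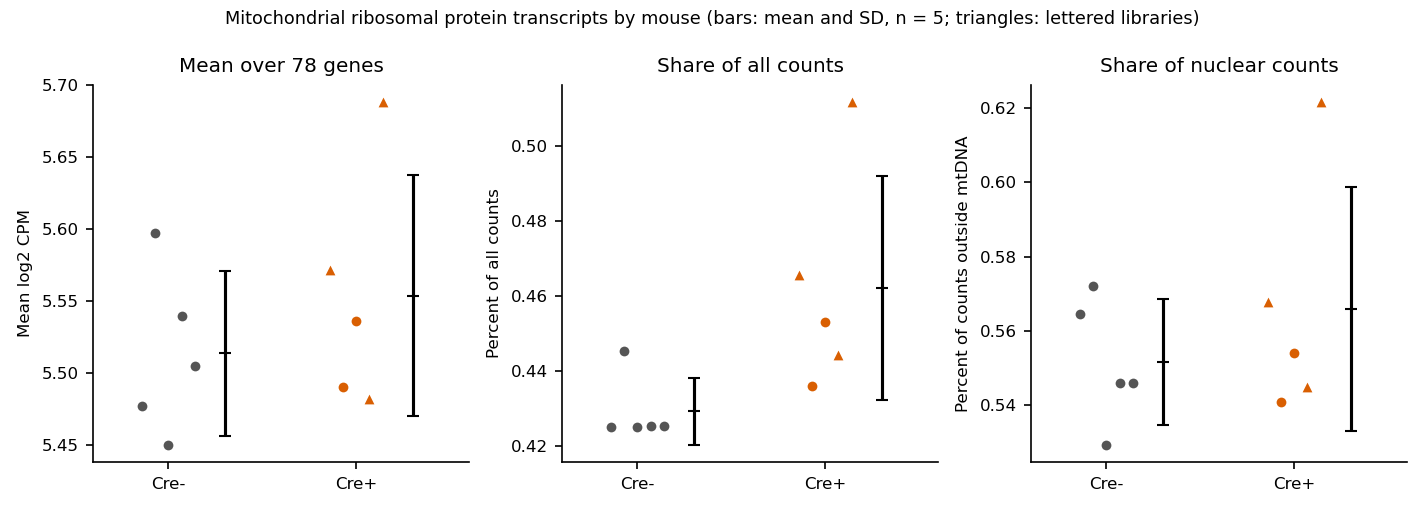
Mean log2 CPM over the 78 genes, their percent of all counts and their percent of counts outside mtDNA, 1 point per mouse with mean and SD (n = 5), triangles marking the lettered libraries. Cre+ replicate 5 is the highest point in each panel (5.69, 0.512% and 0.622%), and the genotypes overlap in all 3 panels.

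Not a single gene of the 78 passed an adjusted p under 0.05 by edgeR, where 0.164% of all genes tested were called. DESeq2, which called 2.28% of its genes, and limma voom with sample quality weights, which called 0.837%, likewise called 0 of the 78. At an unadjusted p under 0.05, edgeR had 8 of the 78 (10.3%) higher in Cre+ mice, against 6.4% of all genes, and 3 (3.85%) lower, against 5.95%. DESeq2 had 8 and voom 11 in either direction, against 2309 and 2923 of the 17690 genes. The groups did not overlap for Mrps26, with Cre+ above (1.28% of the members, against 1.2% of all genes), and for Mrpl16, with Cre+ below (1.28%, against 1.47%). These shares are near those of all genes, except for the 10.3%, which is taken up below.

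The median log2FC of the 78 genes was 0.050, against 0.0018 for all genes tested. The middle 50% lay between -0.047 and 0.11, the range ran from -0.22 to 0.54, and 50 values were positive and 28 negative. Large subunit genes had a median of 0.061 with 32 positive of 49, and small subunit genes of 0.034 with 18 positive of 29. Genes with a bacterial counterpart had a median of 0.042 and mitochondria-specific genes of 0.056. The latter class held 8 of the 11 genes with an unadjusted p under 0.05 by edgeR. Of its 32 genes, 6 were higher and 2 lower, against 6.4% and 5.95% of all genes. Without the lettered libraries 0 of the 32 had such a p. Without the 2 muscle-rich libraries the median was 0.087, without Cre+ replicate 5 it was 0.0052, and without the 3 lettered libraries it was -0.019, with 31 positive and 47 negative.

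The members were measured with more precision than most genes. The median SE of their log2FC values was 0.073, against 0.15 over all genes tested. The 95% interval of the log2FC lay inside ±0.5, a 1.41-fold difference, for 76 of the 78 genes, the exceptions being Mrpl53 and Mrps34. It lay inside ±0.25, a 1.19-fold difference, for 45. Mrpl53 was the gene whose interval also went past a 2-fold difference (log2FC 0.54, 95% interval 0.022 to 1.05).

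**Figure D3:**
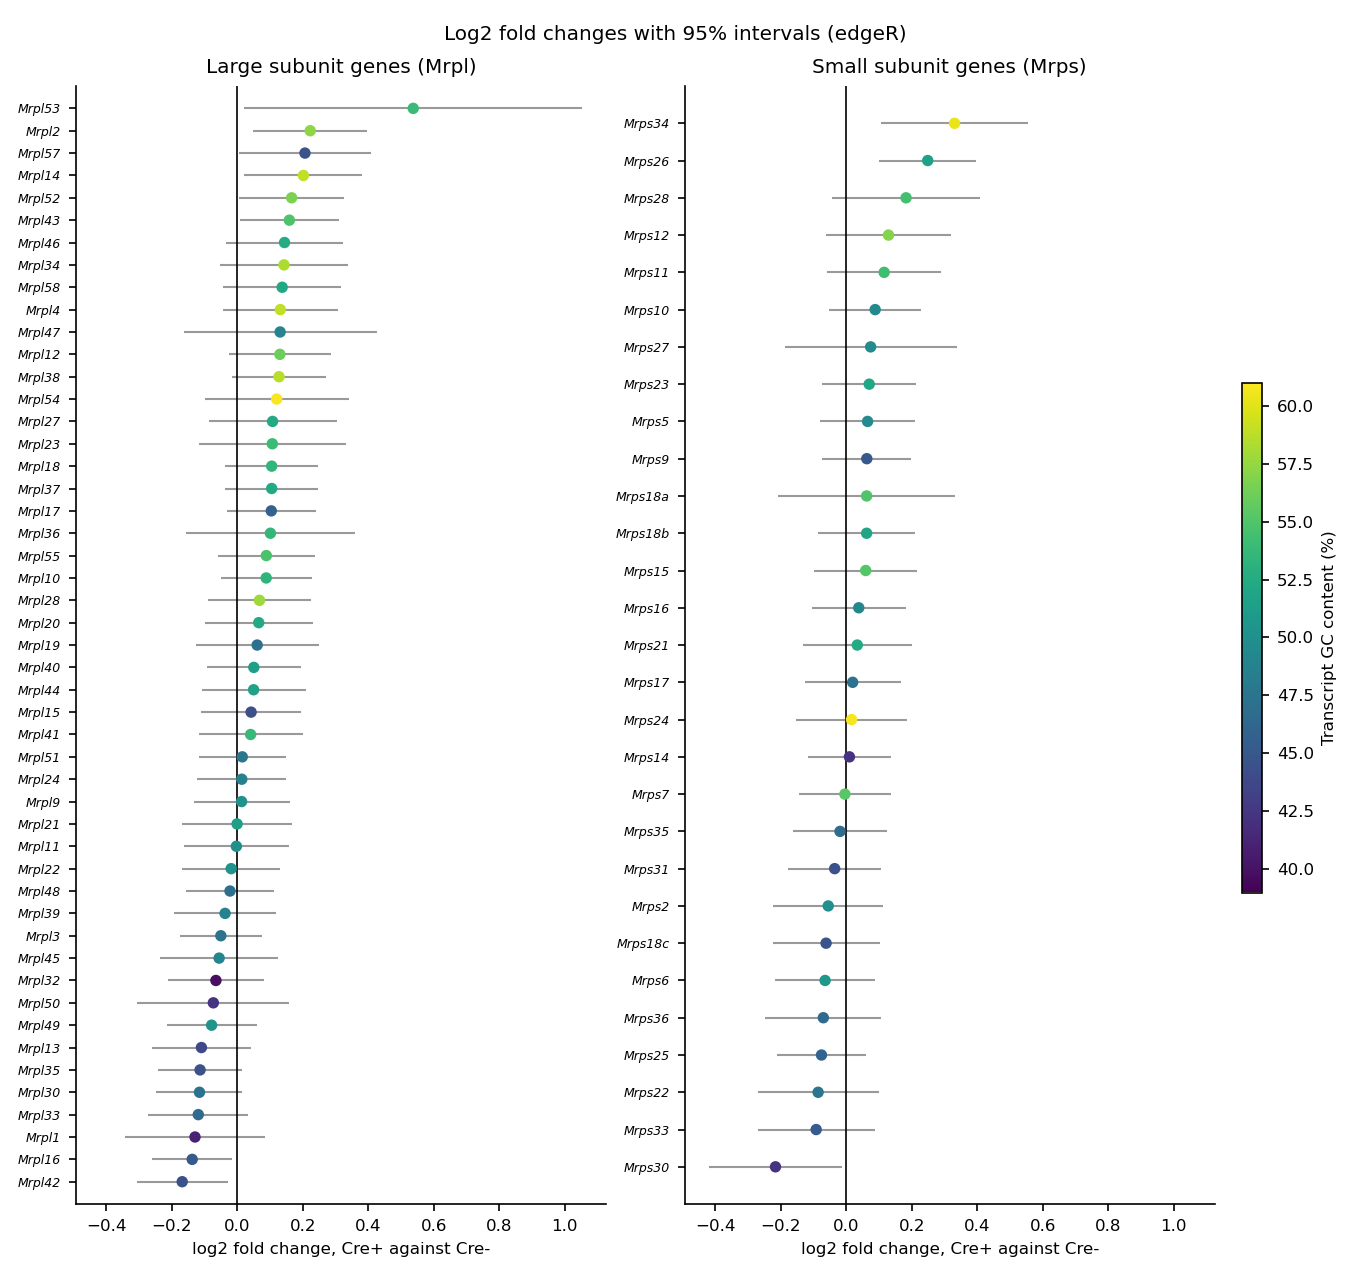
Log2FC of Cre+ against Cre- with its 95% interval from edgeR for each large and small subunit gene, with points coloured by the GC content of the transcript. Points range from -0.22 to 0.54 on the log2 scale, and light, GC-rich points lie mostly on the right and dark, GC-poor points mostly on the left.

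The sign of the difference went with base composition. Transcript GC content of the 78 genes was 39.8 to 60.8%. In the 26 genes with the lowest GC content the median log2FC was -0.063 with 18 of 26 negative, in the middle 26 it was 0.044, and in the 26 with the highest it was 0.12 with 25 of 26 positive. Of the 8 genes with an unadjusted p under 0.05 and a positive value, 6 were in the highest group, and all 3 with a negative value were in the lowest. Over the 78 genes, log2FC and GC content had a Pearson r of 0.64 and a Spearman rho of 0.70, which describe genes that share the same 10 libraries.

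The same quantity can be read in each mouse as the mean log2 CPM of the 26 highest-GC genes minus that of the 26 lowest-GC genes. It was -0.31, -0.32, -0.30, -0.25 and -0.32 in the Cre- mice. In the Cre+ mice it was 0.036 (replicate 1), -0.27 (replicate 2), -0.22 (replicate 3), -0.11 (replicate 4) and -0.056 (replicate 5). The 3 lettered libraries were the highest, and replicate 2 lay inside the Cre- range while replicate 3 lay just above it. Without the lettered libraries the median log2FC values of the lowest, middle and highest GC groups were -0.048, 0.010 and 0.0021, and r over the 78 genes was 0.21. With an offset for the GC trend of each library, chosen after the data were seen, the medians were -0.0034, 0.046 and 0.055, r was 0.22 and 4 genes had an unadjusted p under 0.05 in place of 11. All 4 had positive values with the offset, namely Mrps26 (0.24), Mrps34 (0.22), Mrpl57 (0.27) and Mrpl17 (0.16). Of all 17690 genes, 922 had such a p with a positive value and 1000 with a negative one.

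**Figure D4:**
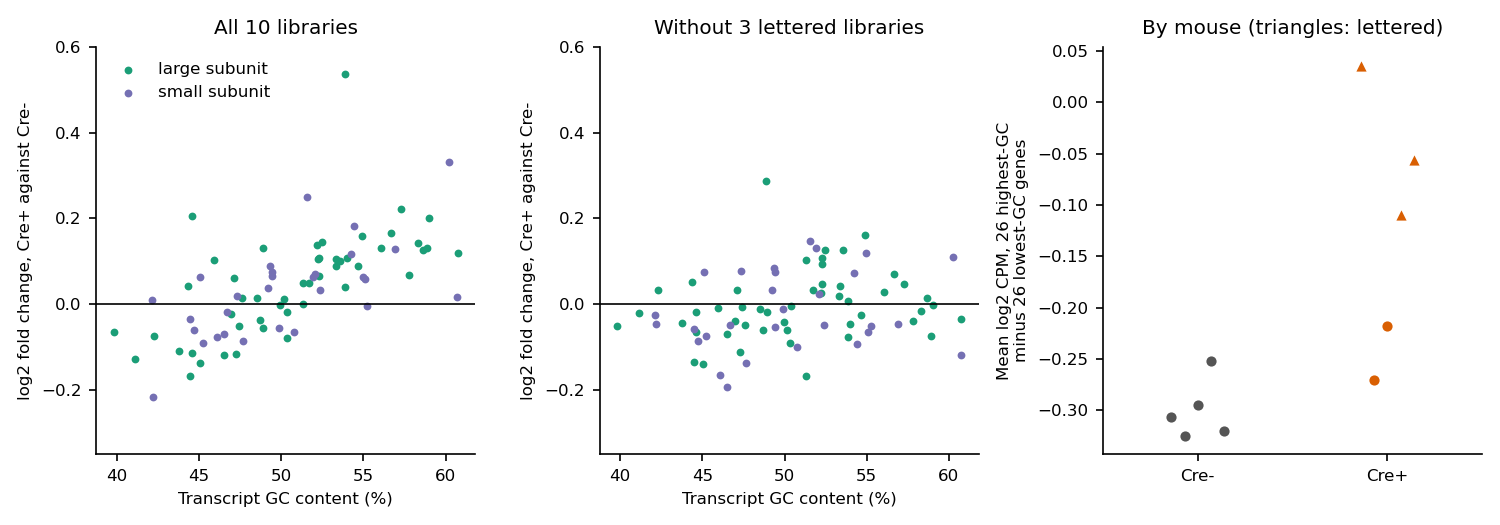
Log2FC of each gene against transcript GC content (%) with all 10 libraries and without the 3 lettered libraries, and, by mouse, mean log2 CPM of the 26 highest-GC minus the 26 lowest-GC genes. The relation with GC (r = 0.64) is much flatter without the lettered libraries (r = 0.21), and these libraries (triangles, -0.11 to 0.036) are the highest in the last panel.

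Mrps26, a mitochondria-specific protein of the small subunit, had the smallest p of the 78 genes. It had 31.4, 30.7, 30.6, 29.4 and 30.2 CPM in the Cre- mice and 37.9, 33.4, 34.3, 34.4 and 40.9 CPM in the Cre+ mice. The lowest Cre+ mouse lay above the highest Cre- mouse, and the lettered libraries of replicates 1 and 5 were the highest. Its log2FC of 0.25 had an SE of 0.069 and an adjusted p of 0.173 in edgeR. It was 0.24 with the GC offset and 0.15 without the lettered libraries. The gene (ENSMUSG00000037740.9, chromosome 2 of GRCm39, 130405662 to 130410615) has the ETS letters shown above 15 bases before its start, and its transcript has an intermediate GC content of 51.6%.

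Mrps34, another mitochondria-specific small subunit protein, needed for stability of the small subunit, had 26.01 to 31.0 CPM in Cre- mice and 37.8, 28.3, 31.4, 33.2 and 42.7 CPM in Cre+ mice. The groups overlapped, and the lettered libraries held the 3 highest values. Its log2FC was 0.33 (SE 0.10, adjusted p = 0.226 from edgeR), and it was 0.11 without the lettered libraries and 0.22 with the GC offset. Its transcript has a GC content of 60.2%, and 77.8% of its exon bases are shared with other genes, so its reads cannot be assigned with certainty.

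In several large subunit genes with positive values the lettered libraries were likewise the highest. Mrpl2 had 79.4 to 88.6 CPM in Cre- mice and 105, 85.7, 92.2, 101 and 116 CPM in Cre+ mice, with the 3 lettered libraries highest (log2FC 0.22, SE 0.080). Mrpl14, a protein at the face between the subunits, had 32.2 to 36.3 CPM in Cre- mice and 44.3, 33.9, 34.8, 41.6 and 42.6 CPM in Cre+ mice. Cre+ replicates 2 and 3 lay within the Cre- range, and the log2FC of 0.20 (SE 0.084) was -0.0029 without the lettered libraries. For Mrpl2 it was 0.047 without them. Mrpl43, mitochondria-specific and with 33.4% of exon bases shared with another gene, had a log2FC of 0.16 (SE 0.070), which was also 0.16 without the lettered libraries.

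Mrpl53, mitochondria-specific, had the largest log2FC (0.54, SE 0.24) at the lowest level, with 0.575 to 1.00 CPM in Cre- mice and 1.67, 0.750, 0.787, 1.14 and 1.18 CPM in Cre+ mice. Its value was 0.0071 without the lettered libraries. Mrpl52 and Mrpl57, named after their values were seen because they complete the 8, had log2FC values of 0.17 (SE 0.075) and 0.21 (SE 0.093). They had 0.071 and -0.019 without the lettered libraries, and 0.078 and 0.27 with the GC offset. Adjusted p-values from edgeR for the 6 large subunit genes of these 2 paragraphs were 0.283 to 0.393. Among the 8 genes Mrpl57 had the lowest GC content, with 44.6%.

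Of the 3 genes with negative values and an unadjusted p under 0.05, Mrpl16 encodes a large subunit protein with a bacterial counterpart. It had 61.8, 68.6, 63.7, 68.3 and 65.5 CPM in Cre- and 61.1, 58.9, 60.4, 56.7 and 60.7 CPM in Cre+ mice. Every Cre+ mouse lay below every Cre- mouse, with 61.1 and 61.8 CPM the nearest pair, and the gene had the smallest spread between mice of the same genotype among the 78. The log2FC was -0.14 (SE 0.056, adjusted p = 0.349 from edgeR), and it was -0.14 without the lettered libraries and -0.084 with the GC offset. Mrpl42, mitochondria-specific, had 143 to 174 CPM in Cre- and 135 to 147 CPM in Cre+ mice (log2FC -0.17, SE 0.064, adjusted p = 0.314 from edgeR), and -0.14 without the lettered libraries. Of the 3 genes, these 2 kept most of their value without the lettered libraries.

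Mrps30, whose product structures place in the large subunit despite its name, had 31.9, 34.8, 30.6, 33.0 and 36.8 CPM in Cre- and 24.4, 31.0, 33.9, 25.1 and 29.4 CPM in Cre+ mice. The lettered libraries held the 3 lowest values. The log2FC was -0.22 (SE 0.095, adjusted p = 0.379 from edgeR) and -0.047 without the lettered libraries. Mrpl1, with a bacterial counterpart in the mobile stalk through which spent tRNA leaves, had a log2FC of -0.13 (SE 0.099), and -0.021 without the lettered libraries.

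**Figure D5:**
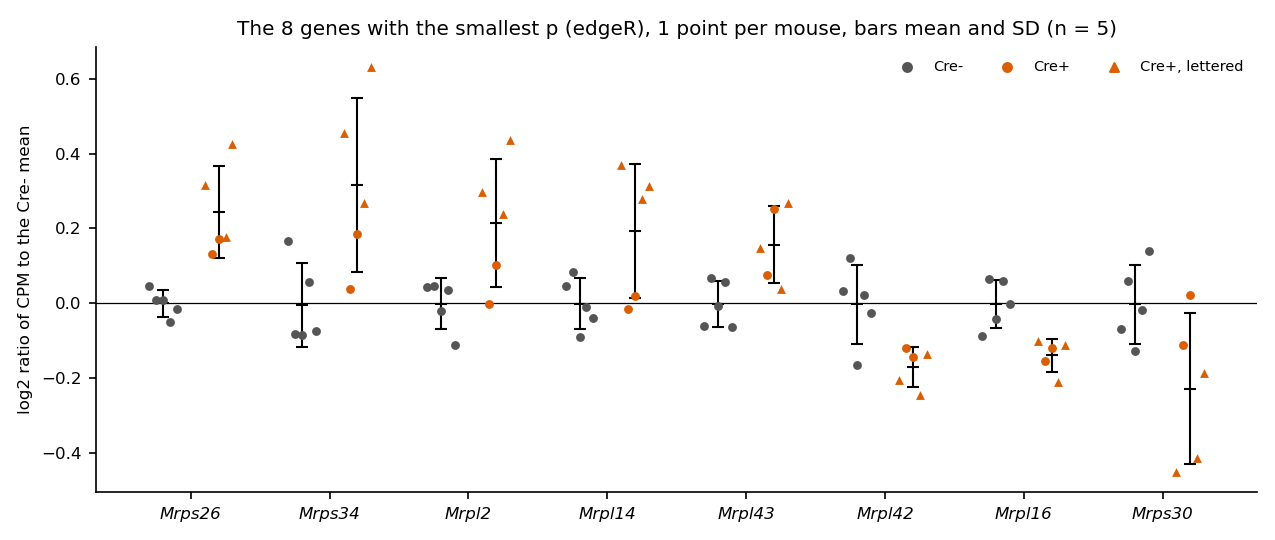
CPM of the 8 genes with the smallest p as the log2 ratio to the Cre- mean, 1 point per mouse, with mean and SD (n = 5) and triangles for the lettered libraries. Mrps26 (all Cre+ above) and Mrpl16 (all Cre+ below) are the genes without overlap, and in Mrps34, Mrpl2, Mrpl14 and Mrps30 the triangles lie farthest from the Cre- points.

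Of the 4 genes of highest level, Mrpl2 is described above, and the 95% intervals of the other 3 included 0. Mrpl34 had a log2FC of 0.14 (95% interval -0.053 to 0.34), Mrpl12 of 0.13 (-0.025 to 0.28) and Mrps21 of 0.034 (-0.13 to 0.20). These were -0.016, 0.028 and -0.048 without the lettered libraries. The stalk genes Mrpl10 and Mrpl11 had 0.088 (SE 0.065) and -0.0029 (SE 0.074), and Mrpl58 had 0.14 (SE 0.084), against 0.020, -0.043 and 0.026 without the lettered libraries. At low level, Mrpl23 had 0.11 (SE 0.10), Mrps10 0.088 (SE 0.065) and Mrpl33 -0.12 (SE 0.071), against -0.046, 0.084 and -0.071 without the lettered libraries. The 3 S18 genes had 0.062 (Mrps18a), 0.062 (Mrps18b) and -0.062 (Mrps18c), and without the lettered libraries 0.12, 0.13 and -0.087. In Mrps18a the Cre+ mice spread from 37.4 CPM in replicate 4 to 69.5 CPM in replicate 5, against 52.5 to 56.1 CPM in the Cre- mice. Mrpl47, with a large spread between mice, had a log2FC of 0.13 (SE 0.14), and 0.29 without the lettered libraries, where it was the 1 member with an unadjusted p under 0.05. Of the 17690 genes of the main fit, 1814 had such a p in the fit without the lettered libraries. Mrpl3, with a small spread, had -0.050 (SE 0.058), and -0.0066 without the lettered libraries. Without the 2 libraries rich in muscle transcripts Mrpl47 had a log2FC of 0.26, Mrps18a of 0.17, Mrps18c of -0.013, Mrps21 of 0.091, Mrpl1 of -0.058, Mrpl3 of -0.026, Mrpl33 of -0.050 and Mrpl11 of 0.060. The other members named by the rule moved by less than 1.5 times.

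Across the 10 libraries, after the genotype means were taken out, pairs of the 78 genes had a mean correlation of 0.38, against 0.00054 for pairs of all genes tested and 0.52 for pairs of cytosolic ribosomal protein genes. In the 7 libraries without a letter the mean was 0.28. Scaling the libraries tends to hold the mean over all genes near 0, and all genes include many of lower level. The value for all genes is therefore not a baseline for genes of like level. The points of these correlations share library, depth and base composition, and they are given as a description.

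Other genes of mitochondrial translation were taken from lists, and edgeR called 0 members of each. DESeq2 called members of 2 of them, the mtDNA-encoded mRNAs and the cytosolic ribosomal proteins, and voom of 0. Of 5 ribosomal proteins with other symbols, Dap3 (a GTP-binding protein of the small subunit), Ptcd3 (which binds RNA in the small subunit), Chchd1, Aurkaip1 and Gadd45gip1, 1 (Gadd45gip1, log2FC 0.24) had an unadjusted p under 0.05, and the median was -0.051. Gadd45gip1 had -0.050 without the lettered libraries. The median of 26 genes of ribosome assembly and rRNA modification was 0.068. Against 6.4% of all genes, 3 of them (11.5%) had an unadjusted p under 0.05 by edgeR with a positive value, and 0 with a negative value. They were the assembly factors Rcc1l (0.18, SE 0.069) and Mpv17l2 (0.19, SE 0.082) and the rRNA methyltransferase Mrm3 (0.25, SE 0.11). They had 0.17, 0.11 and 0.16 without the lettered libraries, where the list's median was 0.069 and 0 of its genes had such a p. The Cre+ mice had 21.2 to 26.1 CPM of Rcc1l and the Cre- mice 19.9 to 20.9 CPM, without overlap. Such a separation with Cre+ above was seen for 1.2% of all genes.

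Of 18 translation factor genes tested, elongation factor Tsfm had a log2FC of 0.22 (SE 0.090) and the methionine aminopeptidase Metap1d of -0.16 (SE 0.064), 1 in each direction at an unadjusted p under 0.05. That is 5.56% in each direction, against 6.4% higher and 5.95% lower of all genes. The release factor Mtrf1l had -0.15 (SE 0.099). The 3 genes had 0.0083, -0.17 and -0.086 without the lettered libraries. The median was 0.0046, and 0.011 without them. Of 22 mitochondrial aminoacyl-tRNA synthetase genes, Lars2 and Aars2 (9.09%, against 6.4% of all genes) had an unadjusted p under 0.05 with a positive value. The median of the list was 0.0046. Aars2, which charges alanine tRNA, had 0.23 (SE 0.099), and Pars2, which charges proline tRNA, 0.21 (SE 0.11). Without the lettered libraries they had 0.14 and 0.23, and the list's median was 0.010.

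Lars2, which charges leucine tRNA, had 220, 184, 197, 163 and 183 CPM in the Cre- mice and 725, 199, 209, 431 and 400 CPM in the Cre+ mice. The 3 lettered libraries held 400 to 725 CPM, and Cre+ replicates 2 and 3 lay within the Cre- range. The log2FC of 1.05 (SE 0.34) was 0.10 without the lettered libraries and 1.07 with the GC offset. Lars2 thus separated the lettered from all other libraries at a transcript GC content of 48.6%.

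Of 9 transcription factors and coactivators of mitochondrial genes, the nuclear receptor gene Esrra (0.21, SE 0.077) and the coactivator gene Pprc1 (-0.47, SE 0.20) had an unadjusted p under 0.05. This was 1 in each direction (11.1% each, against 6.4% higher and 5.95% lower of all genes), and the median was -0.048. Myc had 0.64 (SE 0.36). These 3 genes had 0.13, -0.71 and 0.030 without the lettered libraries, and the median was then 0.014. Cytosolic ribosomal protein genes, of which 82 were tested, had a median of 0.064 with 59 positive and 23 negative, and DESeq2 called 1 of them higher. Their median was -0.059 without the lettered libraries, where that of the mitochondrial ones was -0.019.

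The mitochondrial ribosome's rRNAs and the mRNAs it translates were examined next. The rRNAs mt-Rnr1 and mt-Rnr2, in poly(A)-selected RNA, had log2FC values of -0.45 (SE 0.15) and -0.47 (SE 0.22), and 1 of the 2 had an unadjusted p under 0.05. The 13 mtDNA-encoded mRNAs that the ribosome translates had a median of -0.31, with 13 of 13 negative. Of these, 0 were called by edgeR, 5 called lower by DESeq2 and 0 called by voom. DESeq2 called 2.28% of its genes in either direction. At an unadjusted p under 0.05 by edgeR 8 of the 13 were lower, against 5.95% of all genes. The 13 share the same libraries, so they are not independent replicates. Examples were mt-Nd2 (-0.38, SE 0.089), mt-Cytb (-0.33, SE 0.083) and mt-Nd4 (-0.31, SE 0.079). Without the lettered libraries the median of the 13 was -0.23 with 12 negative and 1 at an unadjusted p under 0.05 by edgeR. In the same fit the 2 rRNAs had -0.65 and -0.84, both at such a p. Of the 17690 genes of the main fit, 1814 had such a p there, in either direction. With the GC offset the median of the 13 was -0.23 with 13 negative, and the 2 rRNAs had -0.35 and -0.36. At an unadjusted p under 0.05 by edgeR 6 of the 13 mRNAs were lower with the offset, against 1000 of all 17690 genes. Their GC content is 31.9 to 41.1% for the mRNAs and 35.4 and 35.8% for the rRNAs, at or below the low end of the ribosomal protein genes (39.8%) for most.

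The balance between them can be read in each mouse as the summed CPM of the 13 mtDNA-encoded mRNAs over the summed CPM of the 78 genes. The ratio was 48.3, 44.3, 40.0, 44.8 and 45.6 in the Cre- mice and 32.5, 39.2, 37.1, 35.6 and 30.1 in the Cre+ mice. Every Cre+ mouse lay below every Cre- mouse, and the Cre+ replicates nearest to the Cre- mice were the unlettered ones, 2 and 3. The numerator was 168200 to 208340 CPM in Cre- and 147990 to 169670 CPM in Cre+ mice, while the denominator was 4207 to 4652 CPM and 4293 to 4931 CPM, so the separation lay in the mtDNA-encoded mRNAs more than in the ribosomal protein transcripts. The ratio itself was not corrected for base composition. Without the lettered libraries its Cre+ mean was 38.2, against 44.6 ± 3.00 (SD, n = 5) in Cre- mice.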

How the data were processed

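The libraries are RNAseq of iBAT, 5 per genotype. The processing notes of the authors name Trimmomatic and STAR, without a version in the sources used here, the build GRCm39 and, for counting over exons, featureCounts 2.0.1. What they deposited are raw counts per gene of GENCODE M28, as the file headers show. Strand was not used, each mate of a pair was counted by itself and reads with several alignments were left out, so reads of overlapping genes and of near-identical copies are uncertain.

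Gene symbols came from a table that matched 52081 of 55414 identifiers, and the 78 genes are those whose symbol is Mrpl or Mrps with a number and at most 1 letter. The main fit was the edgeR 4.0.16 quasi-likelihood test in R 4.3.3 on all 10 libraries with genotype as the only term, TMM scaling, the filterByExpr filter (at least 10 counts in enough libraries and 15 in total) and robust estimation. The SE is the absolute log2FC over the square root of F, and log2 CPM used a prior count of 2. TPM used exon lengths of the files. GC content came from GENCODE M21 transcripts, and promoters from RefSeq GRCm38.p6. Motif matches and start codons were read on GRCm38, and all gene coordinates are from the files.

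Alternatives were DESeq2 1.42.0, limma voom 3.58.1 with sample quality weights, DESeq2 size factors, TMM without mtDNA-encoded genes, no filter, a block for the replicate number, a filter of 10 counts in each library, a muscle marker covariate, and leaving out single libraries, the 2 with most muscle transcripts or the 3 lettered ones. A GC offset per library (20 bins) and leaving out Cre+ replicates 1 and 5 together were added after seeing the data. Simulated counts with known differences were used to check the scripts. The members, the gene lists and the rule for naming genes were chosen with earlier results of these data known. The sums of muscle and brown adipocyte markers served as checks of the tissue. The naming rule takes the members with the smallest p, the largest differences, the highest and lowest levels, the largest and smallest spread, and a fixed few (the S18 and stalk genes and Mrpl58). From each other list it takes the 3 with the smallest p.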

Additional observations from a re-analysis of the deposited data

Results flagged for a closer look

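In 66 sets of 5 libraries (the named genes and the group's share of counts, in each genotype), 4 had a library far from the other 4, and chance alone gives about 1 in 20. For Mrps21, Cre- replicate 3 had 58.72 CPM, against 68.0 to 71.8 CPM in the other Cre- mice. For Dap3, Cre+ replicate 5 had 89.38 CPM, against 79.8 to 81.4 CPM in the other Cre+ mice. For Ptcd3, Cre+ replicate 2 had 110.7 CPM, against 90.6 to 95.5 CPM. The 78 genes took 0.4452% of counts in Cre- replicate 2, the library with the most muscle transcripts, against 0.4249 to 0.4254% in the other Cre- mice. The part of muscle tissue in this share was not tested.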

How the results depend on the processing

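Of the 78 genes, 0 were called under the main fit and under each alternative that was run. Over all genes, calls ran from 2 of 18257 (without both Cre+ replicates 1 and 5) to 393 of 17209 (DESeq2). These shares are small, so 0 of 78 does not set the members apart. The median log2FC of 0.050 ranged from 0.028 (GC offset) to 0.087 (without the 2 libraries rich in muscle transcripts) under the other alternatives, and from 0.0052 (without Cre+ replicate 5) to 0.069 when single libraries were left out. It was -0.019 without the 3 lettered Cre+ libraries and -0.0037 without both Cre+ replicates 1 and 5, and the cause was not tested. Apart from 0.087, these values are smaller than the spread of the library means within a genotype (SD 0.072). Under 21 alternatives for each of 24 named genes, 488 values kept their sign. The side of the threshold could not change, since 0 members were called in each fit. A kept sign is not a kept size. Without the lettered libraries Mrpl53 went from 0.54 to 0.0071 and Mrpl2 from 0.22 to 0.047, while Mrpl47 went from 0.13 to 0.29. The other 16 belong to 6 genes. Mrpl11, at -0.0029 in the main fit, had 0.039 with voom, 8.7e-05 with TMM without mtDNA-encoded genes, 0.060 without the muscle libraries, 0.0069 with the GC offset, and -0.051 to 0.040 with single libraries left out. Without the lettered libraries Mrpl14 had -0.0029, Mrpl23 -0.046, Mrpl34 -0.016 and Mrps21 -0.048. With single libraries left out Mrps21 had -0.011 (without Cre- replicate 3) to 0.066 and Mrps18a -0.021 (without Cre+ replicate 5) to 0.18. With the replicate number as a block (replicate block) the median was 0.044, and 5 genes had an unadjusted p under 0.05 in place of 11. That count was not set against all genes. Same-numbered mice deviated together with correlations of -0.20 to 0.22, so the numbers were not taken as pairs. Mrpl53 had the lowest counts of the members, at 0.575 to 1.67 CPM, and the widest interval.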
